A study of Mus musculus with 18 samples.

Results

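The 10 genes described here make up the core of the transforming growth factor beta (TGF-beta) pathway and the genes that restrain it: the ligand Tgfb1, the receptors Tgfbr1 and Tgfbr2, the signal carriers Smad2, Smad3 and Smad4, and the negative regulators Smad7, Ski, Skil and Pmepa1. They were taken by symbol from a table of 18204 genes, and all 10 were among the 16383 genes tested. The set was chosen by the TPM of Tgfbr1 and Pmepa1, which were higher with the inhibitor 4-Cl-HIPP than with vehicle in these samples, so the values under 4-Cl-HIPP against vehicle are a description and carry no test. The cells were J774.1, a mouse macrophage cell line. C-terminal binding proteins (CTBPs) are transcriptional corepressors with a dehydrogenase domain, and MTOB and 4-Cl-HIPP are substrate competitive inhibitors aimed at that domain. RNA was sequenced from 18 samples, 3 biological replicates of each of 6 groups. Wildtype cells and Ctbp1/2dKO cells, in which Cas9 had cut both Ctbp1 and Ctbp2, each received vehicle (PBS/DMSO), MTOB at 1.5 mM or 4-Cl-HIPP at 250 µM for 4 h. Wildtype and knockout cells came from clones grown from single cells, and how many clones were sequenced is not stated in the sources used here, so the loss of the CTBPs and a difference between clones cannot be told apart.

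TGF-beta binds the type II receptor TGFBR2, which then recruits and phosphorylates the type I receptor TGFBR1. TGFBR1 phosphorylates SMAD2 and SMAD3, these join SMAD4, and the complex enters the nucleus to switch target genes on or off. Several proteins restrain the pathway, and some of them are its own targets. SMAD7 blocks and helps to degrade the type I receptor, and SKI and SKIL (also called SnoN) hold SMAD complexes in a repressive state. PMEPA1 (also called TMEPAI) keeps SMAD2 and SMAD3 away from the receptor. In macrophages TGF-beta is known for restraining inflammatory gene expression and for shaping tissue-resident states. CTBPs have long been known as partners of corepressors and zinc finger proteins that act on SMAD target genes.

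The series held no count table, so the depth behind each sample's value is unknown. The authors give only a mean normalized count per gene, which among the members ran from 58.2 for Smad7 to 1368 for Tgfb1. Values are scaled TPM (transcripts in a fixed total per sample), a level per gene length that allows genes to be compared, and each sample summed to between 999766 and 999897 over the listed genes. Replicates of a group correlated at r = 0.983 to 0.987 across genes. Ctbp1 stood at 170 to 238 TPM in the 9 wildtype samples and at 19.7 to 31.5 TPM in the 9 dKO samples, and Ctbp2 at 87.8 to 96.9 and 68.5 to 81.9 TPM, so Ctbp2 mRNA remained in the dKO cells. The study describes stop and frameshift mutations in each gene and reports that western blots showed both proteins lost. Of 10 macrophage markers 9 were in the table and summed to between 2397 and 3493 TPM, with Csf1r, the receptor for the macrophage growth factor, at 612 to 942 TPM. Other macrophage markers varied more between samples, with Adgre1 at 6.70 to 107 TPM, Itgam at 11.3 to 65.3 TPM and Cd14 at 91.6 to 857 TPM, and their part in the results was not tested. The marker lists for fibroblasts, epithelial cells, endothelial cells, T cells and B cells summed to at most 2.10 TPM in any sample. All fold changes are on the log2(TPM + 1) scale, which understates the change of low genes. A gene passed the test where its adjusted p was below 0.05 (limma on all 18 samples, Benjamini-Hochberg over the 16383 genes). In bulk RNA, fewer cells with an mRNA and less of it per cell cannot be told apart. With 3 samples a group, p-values measure the spread between these samples.

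Tgfbr1 and Tgfb1 are shown with the sequence upstream of their start, because they were the members that passed the test with MTOB in both genotypes, in opposite directions. The windows come from the RefSeq promoter table (GRCm38.p6), which matched 5 of the 10 members (Tgfbr1, Tgfb1, Tgfbr2, Smad3 and Ski), and each window was located on GRCm39, the build behind the deposited table. The Tgfbr1 gene spans chr4:47353134-47414931 (plus strand), and the bases before it are chr4:47352972-47353133. Tgfb1 spans chr7:25386390-25404506 (plus strand), preceded by chr7:25386177-25386389. Both are printed 5′ to 3′ on the plus strand, with GC boxes (GGGCGG or its reverse complement CCGCCC) and CACCC boxes (CACCC or its reverse complement GGGTG) in capitals.
Tgfbr1: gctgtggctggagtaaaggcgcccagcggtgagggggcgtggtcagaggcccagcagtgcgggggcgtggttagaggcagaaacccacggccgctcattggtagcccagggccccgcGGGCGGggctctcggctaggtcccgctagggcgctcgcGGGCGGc
Tgfb1: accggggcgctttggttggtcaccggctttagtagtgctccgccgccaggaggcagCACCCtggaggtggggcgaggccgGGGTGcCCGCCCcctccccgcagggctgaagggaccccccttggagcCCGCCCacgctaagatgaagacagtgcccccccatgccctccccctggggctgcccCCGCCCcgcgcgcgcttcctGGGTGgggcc
The stretch before Tgfbr1 held 2 GC boxes and no CACCC box, and that before Tgfb1 held 3 of each. In the full windows of 300 bases the SMAD-binding letters CAGAC and the ZEB-binding letters CACCTG were not found on either strand. The table gives Tgfbr1 a second window farther into the gene, with 1 CAGAC and 2 CACCC boxes and no GC box. GC and CACCC boxes did not share bases in the printed stretches. Over 32851 such windows on both strands, 35.7% held a GC box, 57.5% a CACCC box, 49.6% CAGAC and 20.2% CACCTG. These matches describe letters and are no evidence of binding.

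At the level of mRNA the pathway was present in these macrophages from ligand to feedback. Tgfb1 was the highest member, with a mean of 157 TPM over the 18 samples, above 93.9% of the genes tested. Skil (42.7 TPM), Tgfbr2 (41.2), Smad4 (38.3), Smad2 (38.0), Tgfbr1 (38.0), Ski (28.0), Pmepa1 (25.8) and Smad3 (17.9) followed at comparable levels. Smad7 was the lowest at 3.94 TPM. The members also differed in how far their group means lay apart. Pmepa1 spanned 6.46-fold from its lowest to its highest group mean and Tgfbr1 3.72-fold, whereas Smad2 spanned 1.09-fold and Smad4 1.21-fold.

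**Figure D1:**
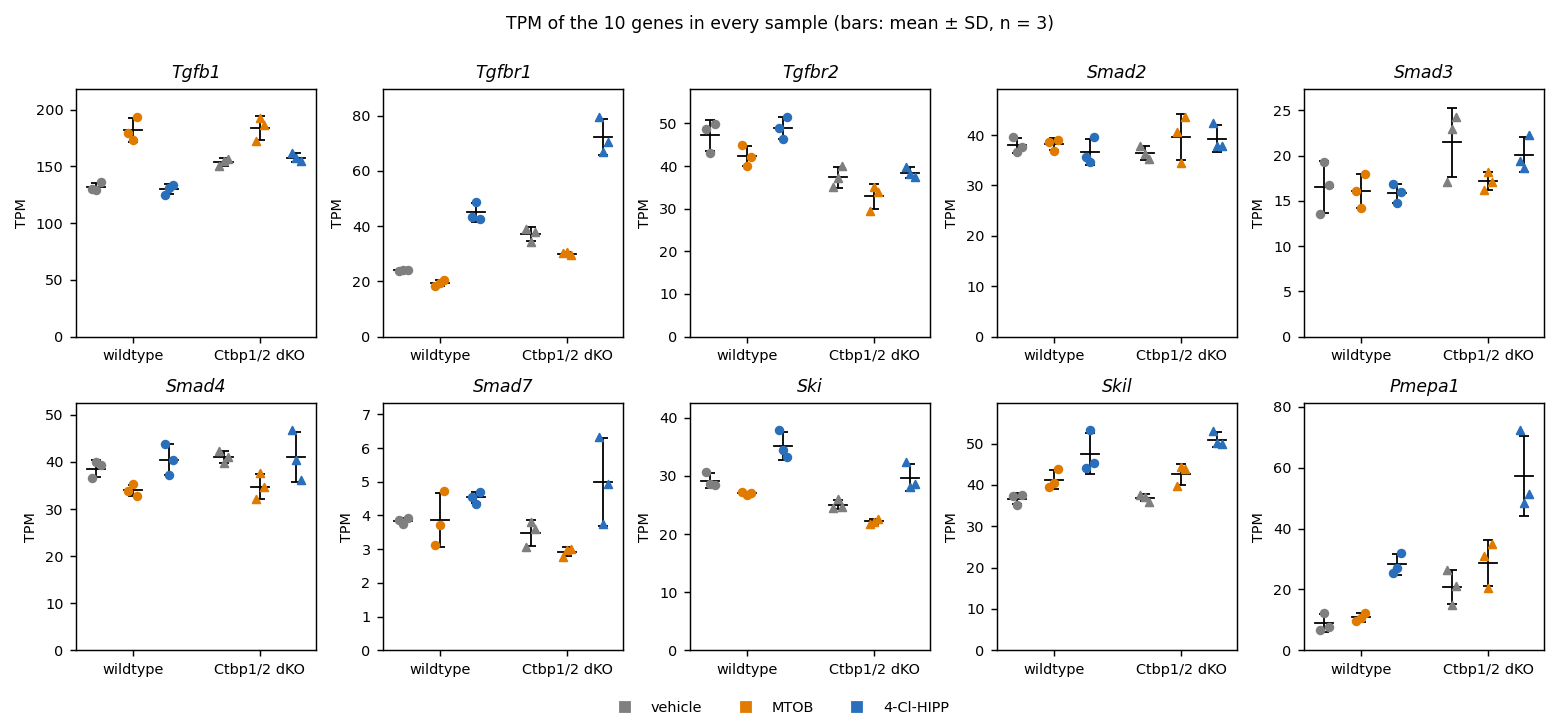
TPM (linear axis from 0, a panel per gene) of the 10 genes in each of the 18 samples, by genotype and coloured by treatment, with each point a sample and the bars the mean ± SD of 3. The 6 Tgfbr1 groups do not overlap, the dKO 4-Cl-HIPP samples of Pmepa1 lie between 48.3 and 72.3 TPM above all other samples, and the group means of Smad2 lie within 1.09-fold of each other.

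Loss of the CTBPs was associated with more Tgfbr1, Pmepa1 and Tgfb1 mRNA and with less Tgfbr2 and Ski mRNA under vehicle. The 5 members past the test stand against 10.8% of all genes tested, and the 2 of them over 1.5-fold (Tgfbr1 and Pmepa1) against 4.83%. The genes tested reach down to a mean normalized count just above 0.222, far below the 58.2 of Smad7, the lowest member. Shares among genes of like level were not computed, here or for the lists below. The members' median log2 fold change was 0.05, against 0.01 over all genes. The vehicle and the 4-Cl-HIPP samples entered the differences by which the set was picked, so for Tgfbr1 and Pmepa1 the genotype tests under vehicle and under 4-Cl-HIPP use samples that also chose them. The MTOB samples did not enter that choice. Between the genotypes under MTOB 4 members passed (11.2% of all genes), 2 of them over 1.5-fold (4.95%), and under 4-Cl-HIPP 5 members (10.2%), 2 of them over 1.5-fold (4.69%). The direction of Tgfbr1, Tgfbr2, Ski and Pmepa1 was the same under each of the 3 treatments.

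Tgfbr1, the type I receptor kinase, stood at 23.9, 24.3 and 24.0 TPM in wildtype cells under vehicle and at 39.1, 34.2 and 38.0 TPM in dKO cells. Under MTOB the wildtype samples were at 18.2, 19.4 and 20.6 TPM and the dKO samples at 30.1, 30.6 and 29.4 TPM. Every dKO sample lay above every wildtype sample of the same treatment. The dKO level was 1.52-fold higher under vehicle (log2 0.60, SE 0.07, adjusted p = 2.01e-05, limma with Benjamini-Hochberg). The difference was 1.52-fold under MTOB (adjusted p = 1.90e-05) and 1.60-fold under 4-Cl-HIPP (adjusted p = 6.24e-06) in the same limma model with Benjamini-Hochberg adjustment. The vehicle difference lay close to the 1.5-fold limit (log2 0.585) and went below it with size factors and without dKO vehicle replicate 1 or 3, with a lowest value of 0.56, and it passed the test in each of these.

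Tgfbr2, the type II receptor that binds the ligand, went the other way. It stood at 48.6, 43.1 and 49.9 TPM in wildtype cells under vehicle and at 35.0, 37.1 and 40.0 TPM in dKO cells, without overlap. The dKO level was lower by log2 0.33 (log2 fold change -0.33, SE 0.07, adjusted p = 0.00701, limma with Benjamini-Hochberg), and by the same test the log2 fold change was -0.36 under MTOB (adjusted p = 0.00367) and -0.34 under 4-Cl-HIPP (adjusted p = 0.00555). Fitted on the compared groups alone, the vehicle and MTOB differences of Tgfbr2 missed the threshold (adjusted p = 0.0653 and 0.0698, limma). The receptors stood in another proportion in the 2 genotypes. The ratio of Tgfbr1 to Tgfbr2 TPM under vehicle was 0.512 ± 0.045 for wildtype and 0.995 ± 0.104 for dKO cells, and under MTOB 0.460 ± 0.047 and 0.918 ± 0.086 (mean ± SD, n = 3).

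Pmepa1, a membrane protein that is both a SMAD target and a brake on SMAD2 and SMAD3, showed the largest difference of the 10 members between the genotypes. Its wildtype vehicle samples stood at 6.63, 12.3 and 7.71 TPM and its dKO vehicle samples at 26.4, 15.0 and 21.0 TPM. Under MTOB they were at 9.55, 10.7 and 12.3 TPM and at 31.0, 20.4 and 35.1 TPM. The groups did not overlap, and replicates of Pmepa1 varied more than those of Tgfbr1. The dKO level was 2.22-fold higher under vehicle (log2 1.15, SE 0.24, adjusted p = 0.00469), 2.47-fold under MTOB (adjusted p = 0.00177) and 1.97-fold under 4-Cl-HIPP (adjusted p = 0.0146), all by limma with Benjamini-Hochberg adjustment. Fitted on only the compared groups, the vehicle difference missed the threshold (adjusted p = 0.0815, limma), and so did the 4-Cl-HIPP difference without wildtype 4-Cl-HIPP replicate 1 (0.0598) or dKO 4-Cl-HIPP replicate 1 (0.0803).

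Ski, a corepressor of SMAD complexes, stood at 30.6, 28.5 and 28.4 TPM in wildtype and at 24.5, 26.0 and 24.7 TPM in dKO cells under vehicle. All dKO samples were below all wildtype samples, with a log2 value of -0.21 (SE 0.06, adjusted p = 0.0258, limma with Benjamini-Hochberg), and likewise under MTOB (-0.27, adjusted p = 0.00475, same test) and 4-Cl-HIPP (-0.24, adjusted p = 0.0135, same test). The vehicle difference missed the threshold without wildtype vehicle replicate 1 (adjusted p = 0.118, limma), without dKO vehicle replicate 1 or 3 (0.0913 and 0.0837), and with no variance trend (0.0506). That under 4-Cl-HIPP missed it on only the compared groups (0.158) and without wildtype replicate 1 (0.0752) or dKO replicates 2 or 3 (0.0697 and 0.0616). Its close relative Skil did not follow, with dKO against wildtype differences of 0.01, 0.04 and 0.10 on the log2 scale (adjusted p = 0.998, 0.780 and 0.426, limma), and the 95% interval under vehicle ran from -0.13 to 0.15. The ratio of Skil to Ski TPM under vehicle was 1.26 ± 0.061 for wildtype and 1.47 ± 0.056 for dKO cells (mean ± SD, n = 3).

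The ligand Tgfb1 stood at 130, 129 and 136 TPM in wildtype and at 150, 155 and 157 TPM in dKO cells under vehicle, and at 125, 131 and 134 against 162, 157 and 154 TPM under 4-Cl-HIPP. The dKO samples were higher throughout both comparisons, with log2 fold changes of 0.22 (SE 0.05, adjusted p = 0.00575) and 0.28 (SE 0.05, adjusted p = 0.000967) by limma with Benjamini-Hochberg adjustment. Under MTOB the genotypes overlapped (180, 173 and 194 against 172, 192 and 187 TPM), and the difference was 0.01 with a 95% interval from -0.09 to 0.12 (adjusted p = 0.935, limma).

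The SMAD transducers and Smad7 did not pass the test in any of the 3 genotype comparisons. Smad2 and Smad4, a receptor-activated SMAD and the shared partner, differed between genotypes by log2 -0.06 and 0.09 under vehicle, with 95% intervals of -0.23 to 0.11 and -0.09 to 0.27. Smad3, the DNA-binding receptor-activated SMAD, was at 13.6, 19.3 and 16.7 TPM in wildtype and 17.1, 22.9 and 24.3 TPM in dKO vehicle samples, which overlapped. Its difference of 0.36 (interval 0.07 to 0.64, adjusted p = 0.114, limma) passed without wildtype vehicle replicate 2 (adjusted p = 0.0490) or dKO vehicle replicate 1 (0.0203). Smad7, the inhibitory SMAD, stood at 3.86, 3.74 and 3.91 TPM in wildtype and at 3.06, 3.81 and 3.60 TPM in dKO cells under vehicle, a log2 difference of -0.11 with an interval from -0.42 to 0.20.

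**Figure D2:**
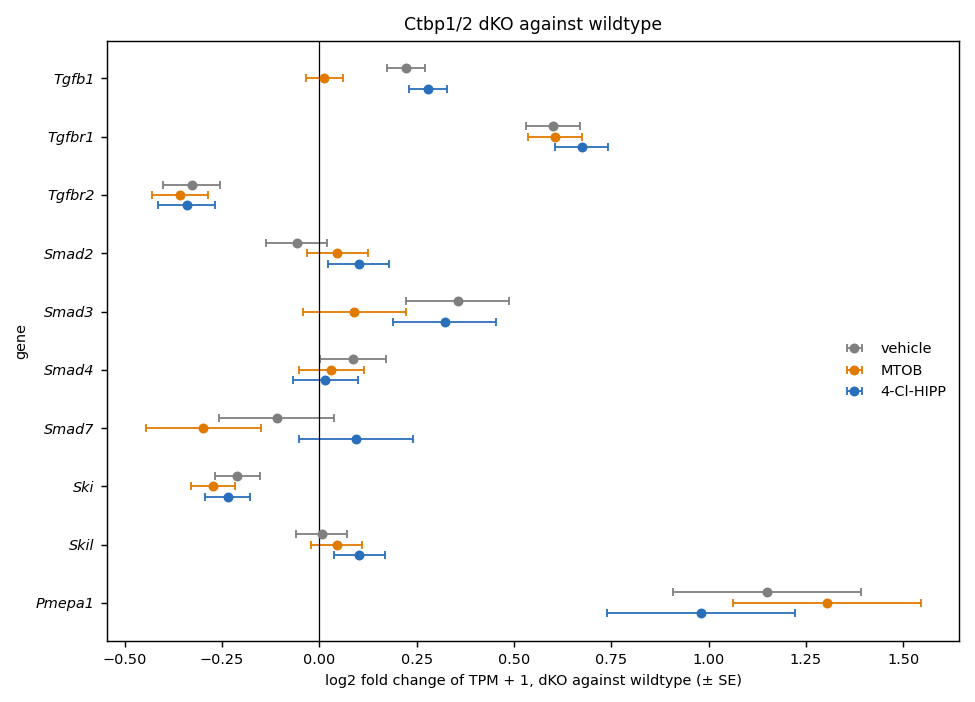
Log2 fold change of dKO over wildtype for the 10 genes under vehicle, MTOB and 4-Cl-HIPP, with bars of ± 1 SE from the limma model. Under vehicle Pmepa1 (1.15) and Tgfbr1 (0.60) lie to the right, Tgfbr2 (-0.33) and Ski (-0.21) to the left, while Smad2 (-0.06) and Skil (0.01) lie near 0.

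MTOB, a methionine metabolite, was followed by more ligand and less type I receptor mRNA in both genotypes. In wildtype cells 2 members passed the test, against 7.26% of all genes, and in dKO cells 2 members, against 6.59%. None was over 1.5-fold, where 2% and 1.6% of all genes were called. The members' median log2 fold changes were -0.02 and -0.18, against -0.01 in both over all genes. The MTOB and 4-Cl-HIPP differences share their vehicle samples within a genotype.

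Tgfb1 was at 130, 129 and 136 TPM in wildtype vehicle samples and at 180, 173 and 194 TPM with MTOB, and every MTOB sample was above every vehicle sample. The log2 fold change was 0.46 (SE 0.05, 1.38-fold, adjusted p = 1.49e-05, limma with Benjamini-Hochberg). In dKO cells Tgfb1 went from 150, 155 and 157 TPM to 172, 192 and 187 TPM, again without overlap, by 0.25 on the log2 scale (SE 0.05, adjusted p = 0.00408, same limma test, and 0.0789 when fitted on the compared groups alone). The MTOB effect in wildtype minus that in dKO cells was 0.21 (SE 0.07, adjusted p = 0.523, limma), so a difference between the genotypes was not shown.

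Tgfbr1 fell from 23.9, 24.3 and 24.0 TPM under vehicle to 18.2, 19.4 and 20.6 TPM with MTOB in wildtype cells, and from 39.1, 34.2 and 38.0 TPM to 30.1, 30.6 and 29.4 TPM in dKO cells. MTOB samples lay below vehicle samples in both. The log2 fold changes were -0.30 (SE 0.07, adjusted p = 0.0154) and -0.29 (SE 0.07, adjusted p = 0.0176) by limma with Benjamini-Hochberg adjustment, and their difference was -0.00 with a 95% interval from -0.21 to 0.20. The wildtype call was lost without vehicle replicate 2 (adjusted p = 0.0521, limma) or MTOB replicate 1 (0.0748). The dKO call was lost when fitted on the compared groups alone (0.0813), without vehicle replicate 1 (0.0780) or 3 (0.0701), and without MTOB replicate 3 (0.0585).

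The corepressors Ski and Skil shifted in opposite directions with MTOB without passing the test. Skil was at 37.2, 35.2 and 37.7 TPM in wildtype vehicle samples and at 39.4, 40.5 and 43.9 TPM with MTOB, a log2 difference of 0.16 (adjusted p = 0.173, limma), and 0.20 in dKO cells (adjusted p = 0.0836, limma). The dKO difference of Skil passed with size factors (adjusted p = 0.0416, limma) and without dKO MTOB replicate 1 (0.0499). Ski differed by -0.11 and -0.17 (adjusted p = 0.350 and 0.101, limma). The ratio of Skil to Ski TPM with MTOB was 1.53 ± 0.086 for wildtype and 1.92 ± 0.095 for dKO cells (mean ± SD, n = 3), above each vehicle sample of the same genotype.

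The MTOB differences of Pmepa1 did not pass the test, with log2 values of 0.30 (interval -0.22 to 0.82) in wildtype and 0.45 (interval -0.06 to 0.97) in dKO cells (adjusted p = 0.593 and 0.345, limma). Smad4 had all MTOB samples below all vehicle samples in both genotypes, but its differences of -0.18 (adjusted p = 0.272, limma) and -0.23 (adjusted p = 0.123, limma) did not pass. Tgfbr2 differed by -0.15 and -0.18 (adjusted p = 0.286 and 0.178, limma). Smad2, Smad3 and Smad7 did not pass in either genotype. By limma 0 of the 10 members passed the test of the MTOB effect between genotypes (0.0916% of all genes did), and 1, Tgfb1, had an unadjusted p below 0.05.

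**Figure D3:**
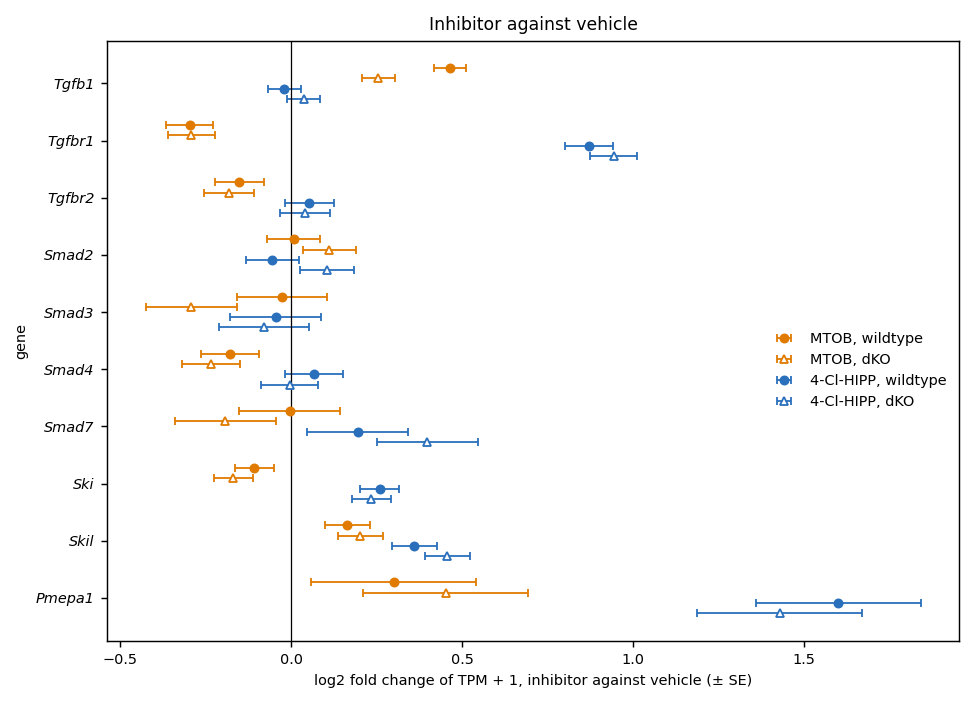
Log2 fold change of each inhibitor over vehicle for the 10 genes in wildtype and dKO cells, with bars of ± 1 SE from the limma model, MTOB in orange and 4-Cl-HIPP in blue, wildtype filled and dKO open. With MTOB, Tgfb1 (0.46 and 0.25) lies above 0 and Tgfbr1 (-0.30 and -0.29) below it, and with 4-Cl-HIPP Pmepa1 (1.60 and 1.43) and Tgfbr1 (0.87 and 0.94) lie farthest from 0.

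4-Cl-HIPP values chose these genes and are given without a test. Tgfbr1 and Pmepa1 were the 2 members over 1.5-fold in each genotype, where 3.64% of all genes in wildtype and 3.59% in dKO cells were past that fold in either direction. Tgfbr1 was at 43.3, 48.8 and 42.6 TPM in wildtype cells with 4-Cl-HIPP, 1.83-fold its vehicle level, and at 79.6, 66.8 and 70.5 TPM in dKO cells, 1.92-fold. Pmepa1 was at 25.5, 27.0 and 32.1 TPM in wildtype cells, 3.03-fold its vehicle level, and at 72.3, 48.3 and 51.3 TPM in dKO cells, 2.69-fold. No 4-Cl-HIPP sample of these genes overlapped with the vehicle samples of its genotype.

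The other negative regulators came next with 4-Cl-HIPP. Next in size below the 1.5-fold limit, Skil stood at 44.1, 53.2 and 45.4 TPM in wildtype (1.28-fold) and at 53.0, 50.1 and 49.8 TPM in dKO cells (1.37-fold). Ski was at 37.8, 34.4 and 33.2 TPM (1.20-fold) and at 32.4, 28.0 and 28.7 TPM (1.18-fold). Both were above all vehicle samples of their genotype. Smad7 was at 4.55, 4.35 and 4.70 TPM in wildtype cells, above its vehicle samples, and at 6.34, 3.73 and 4.93 TPM in dKO cells, where 1 sample lay within the vehicle range. Without dKO 4-Cl-HIPP replicate 1 the Smad7 difference in dKO cells went from 0.40 to 0.24 on the log2 scale and that of Pmepa1 from 1.43 to 1.25. In all, 5 members in wildtype and 4 in dKO cells had all 4-Cl-HIPP samples above all vehicle samples, where 7.65% and 8.01% of all genes did. In neither genotype did a member have all of them below, as 4.94% and 5.73% of all genes did. The members' median log2 fold changes were 0.13 and 0.17, against 0.01 and 0.00 over all genes. These medians and the counts above include Tgfbr1 and Pmepa1, whose rise picked the set, so they are only a description. The other members above all vehicle samples were Skil, Ski and Smad7 in wildtype and Skil and Ski in dKO cells.

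The ligand, the type II receptor and the SMAD transducers stayed near their vehicle levels with 4-Cl-HIPP. Tgfb1 differed by -0.02 in wildtype and 0.04 in dKO cells on the log2 scale, Tgfbr2 by 0.05 and 0.04, Smad2 by -0.05 and 0.11, Smad3 by -0.05 and -0.08, and Smad4 by 0.07 and -0.00. All of these groups overlapped with vehicle. The ratio of Tgfbr1 to Tgfbr2 TPM with 4-Cl-HIPP was 0.921 ± 0.116 for wildtype and 1.88 ± 0.124 for dKO cells (mean ± SD, n = 3).

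Set in order of their means, the 6 groups gave Tgfbr1 and Pmepa1 different sequences. Tgfbr1 rose from wildtype MTOB (19.4 TPM) through wildtype vehicle (24.1), dKO MTOB (30.0), dKO vehicle (37.1) and wildtype 4-Cl-HIPP (44.9) to dKO 4-Cl-HIPP (72.3), and no neighbours in this order overlapped. Pmepa1 ran from wildtype vehicle (8.87 TPM) over wildtype MTOB (10.9), dKO vehicle (20.8), wildtype 4-Cl-HIPP (28.2) and dKO MTOB (28.8) to dKO 4-Cl-HIPP (57.3). Of these, wildtype vehicle and wildtype MTOB overlapped, and so did dKO vehicle with wildtype 4-Cl-HIPP and the latter with dKO MTOB. MTOB and 4-Cl-HIPP were used at different doses, so no comparison of the compounds was made. Side by side, Tgfbr1 was below vehicle with 1.5 mM MTOB and above it with 250 µM 4-Cl-HIPP in both genotypes.

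**Figure D4:**
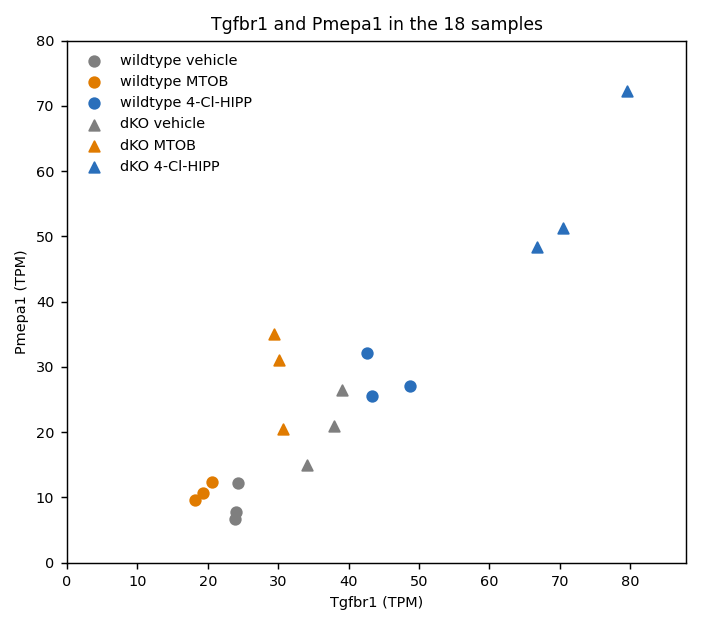
Pmepa1 TPM against Tgfbr1 TPM (both axes linear from 0) in the 18 samples, coloured by treatment with a marker for each genotype. Wildtype vehicle and MTOB samples lie at the lower left and dKO 4-Cl-HIPP samples (66.8 to 79.6 TPM of Tgfbr1, 48.3 to 72.3 TPM of Pmepa1) at the upper right, and the MTOB samples of each genotype lie left of its vehicle samples.

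Among the 9286 genes whose mean normalized count reached 50, those whose log2 values followed Tgfbr1 most closely over the 18 samples were B4galt1 (Pearson r = 0.984), Golm1 (0.972), Fmnl3 (0.958), Socs3 (0.958) and Lpcat2 (0.955). B4galt1 encodes a Golgi galactosyltransferase, Golm1 a Golgi membrane protein and Socs3 a feedback inhibitor of cytokine receptors. B4galt1 stood at 32.1, 24.0 and 48.8 TPM in wildtype cells under vehicle, MTOB and 4-Cl-HIPP and at 44.7, 33.8 and 77.0 TPM in dKO cells, the same order of groups as Tgfbr1. Those nearest to Pmepa1 were Jund (0.907), an AP-1 subunit, Spata13 (0.900), Clic4 (0.900), Rilpl1 (0.897) and Megf9 (0.895). Pmepa1 ranked 47th for Tgfbr1 and Tgfbr1 ranked 9th for Pmepa1 (r = 0.878). These values describe the 18 samples, which fall into 6 groups, and carry no p.

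Beyond the 10 members, 5 lists of pathway genes held 83 genes with them, of which 65 were in the table and tested. In dKO against wildtype cells under vehicle 13 were higher and 5 lower by the limma test (27.7% of the 65, where 10.8% of all genes tested passed), under MTOB 12 and 6 (27.7% against 11.2%), and under 4-Cl-HIPP 18 and 5 (35.4% against 10.2%). With MTOB 7 were higher and 4 lower in wildtype (16.9% against 7.26%) and 9 and 4 in dKO cells (20.0% against 6.59%). The members are part of these counts, and without them 10 of 55 were higher and 3 lower between genotypes under vehicle. Fitted on only the compared groups, the counts were 7 and 5 for MTOB in wildtype and dKO cells and 10 for the genotypes under MTOB.

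Of the 5 lists, the transcriptional targets held the most genes past the test in each comparison named here. Of 16 targets tested, 8 were higher and 1 lower in dKO cells under vehicle (56.2%, against 10.8% of all genes tested). With MTOB 4 were higher and 3 lower in wildtype (43.8% against 7.26%) and 6 and 2 in dKO cells (50% against 6.59%). Without the members, 7 of 13 targets were higher and 1 lower in dKO cells under vehicle (61.5%). The list was written with earlier results of these data known, so these shares are a description. Bhlhe40, a basic helix-loop-helix repressor, under vehicle stood at 5.93 ± 1.46 TPM in wildtype and at 17.1 ± 0.449 TPM in dKO cells (mean ± SD, n = 3; log2 fold change 1.40, adjusted p = 6.45e-06, limma with Benjamini-Hochberg). Spp1, which encodes osteopontin, rose with MTOB by 1.57 in wildtype and 1.07 in dKO cells on the log2 scale (adjusted p = 1.15e-09 and 8.72e-08, limma). The cell cycle inhibitor Cdkn1a rose in both genotypes, by 0.68 for wildtype and 0.60 for dKO (adjusted p = 6.51e-05 and 0.000288, limma). The AP-1 subunit Junb did so by 0.44 for wildtype and 0.78 for dKO (adjusted p = 0.00344 and 2.35e-05, limma). Bhlhe40 fell by 0.67 with MTOB in wildtype cells (adjusted p = 0.00913, limma, and 0.0998 with only the compared groups). The integrin subunit Itgb5 was higher in dKO cells under vehicle by 0.69 (adjusted p = 3.39e-06, limma). With MTOB Itgb5 fell by 0.42 in wildtype and 0.60 in dKO cells (adjusted p = 0.000902 and 3.27e-05, limma). Under 4-Cl-HIPP the 13 targets that are not members had median log2 differences from vehicle of 0.01 in wildtype and 0.18 in dKO cells, given without a test.

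Of the 13 SMADs and nuclear corepressors tested, 1 was higher and 1 lower in dKO cells under vehicle (15.4%, against 10.8% of all genes tested), and none of them passed with MTOB in either genotype by limma. The higher gene was Zeb2, a zinc finger repressor that binds SMADs and CTBPs, at 28.0 ± 7.63 TPM in wildtype and 55.2 ± 5.90 TPM in dKO cells (SD, n = 3 each; log2 fold change 0.98, adjusted p = 0.00157, limma), and it was higher under MTOB (1.23, adjusted p = 0.000209) and 4-Cl-HIPP (0.95, adjusted p = 0.00208) too. The lower gene was Ski. Of 17 ubiquitin ligases, phosphatases and adaptors of the receptors, 1 was higher and 1 lower under vehicle, a share of 11.8% that is near the 10.8% of all genes tested. The lower one was Dab2, an endocytic adaptor that links receptors to SMADs, at 78.8 ± 6.29 TPM in wildtype and 37.1 ± 3.68 TPM in dKO cells (log2 fold change -1.07, adjusted p = 0.000127, limma; SD, n = 3 each). Between genotypes under MTOB 2 of the 17 were higher and 1 lower in dKO cells (17.6%, against 11.2% of all genes). Under 4-Cl-HIPP 4 were higher and 1 lower (29.4%, against 10.2%). Zfyve9, which presents SMADs to the receptor, was higher in dKO cells under MTOB by 0.58 (adjusted p = 0.0192, limma). Its difference was 0.88 under 4-Cl-HIPP (adjusted p = 0.000931, limma) and 0.42 under vehicle, where it did not pass (adjusted p = 0.0985, limma). With MTOB the ubiquitin ligase gene Nedd4l rose in dKO cells by 1.82 on the log2 scale from 1.03 ± 0.854 to 5.89 ± 2.47 TPM (SD, n = 3 each; adjusted p = 0.0168, limma), a call lost on only the compared groups (0.133) and without dKO vehicle replicate 3 (0.0827) or dKO MTOB replicate 2 (0.0709). In wildtype cells Nedd4l went from 0.393 ± 0.270 to 2.77 ± 1.49 TPM (log2 1.37, adjusted p = 0.0678, limma). Its MTOB effect in wildtype minus that in dKO cells was -0.45 (adjusted p = 0.947, limma). Its vehicle values were low, down to 0.0475 TPM in a dKO sample.

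Of 9 ligands and ligand activators tested, 2 were higher in dKO cells under vehicle, Tgfb1 and Itgav (22.2%, against 10.8% of all genes tested). Without the member Tgfb1 it was 1 of 8 (12.5%), near the share of all genes. Several of these 8 had means of only 0.0492 to 0.456 TPM over the 18 samples, a level where log2(TPM + 1) understates changes. Itgav, an integrin subunit that takes part in activating latent TGF-beta, was at 24.5 ± 5.49 TPM in wildtype and 48.2 ± 4.69 TPM in dKO cells under vehicle (SD, n = 3 each; log2 fold change 0.97, adjusted p = 0.00181, limma). Its genotype difference was 0.61 under 4-Cl-HIPP (adjusted p = 0.0422, limma) and 0.40 under MTOB, where it did not pass (adjusted p = 0.199, limma). With MTOB 1 of the 9, Tgfb1, was higher in each genotype (11.1%, against 7.26% of all genes in wildtype and 6.59% in dKO cells). Of 12 receptors and co-receptors, 1 was higher (Tgfbr1) and 2 lower in dKO cells under vehicle (25%, against 10.8% of all genes tested). Without the members Tgfbr1 and Tgfbr2, 0 of 10 were higher and 1 lower (10%), near the share of all genes. With MTOB 2 were higher and 1 lower in wildtype (25%, against 7.26% of all genes), and 1 higher and 2 lower in dKO cells (25% against 6.59%). Without the members the share was 20% of 10 in each genotype. Acvrl1, another type I receptor of the family, rose with MTOB from 2.70 ± 0.315 to 4.76 ± 1.10 TPM in wildtype (log2 0.63, adjusted p = 0.00790, limma, and 0.118 with only the compared groups) and from 3.44 ± 0.338 to 6.16 ± 0.422 TPM in dKO cells (log2 0.69, adjusted p = 0.00443, limma; SD, n = 3 each), in the direction opposite to Tgfbr1.

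**Figure D5:**
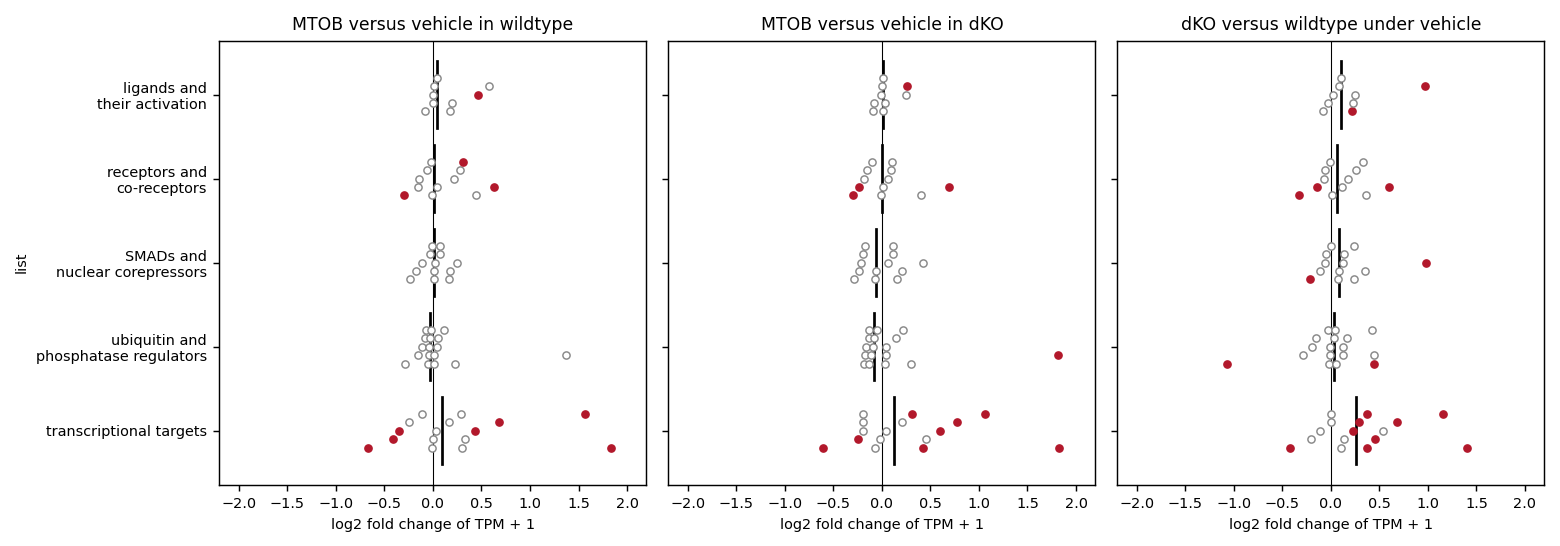
Log2 fold change of each gene tested in the 5 pathway lists, members included, for MTOB in wildtype, MTOB in dKO and dKO against wildtype under vehicle. Filled red points passed the limma test, open points did not, and a vertical bar marks the median of a list. Targets hold the most filled points, with 8 to the right and 1 to the left of 0 among 16 in the genotype panel (56.2%, against 10.8% of all genes tested). The SMADs and corepressors hold none in the MTOB panels.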

How the data were processed

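RNA-seq of 18 samples was analysed, 3 replicates for each of 2 genotypes and 3 treatments, grouped by their labels. Per the study's methods, RNA libraries were made with an unstranded mRNA kit with rRNA depletion (the labels give polyA RNA). The authors quantified transcripts with Salmon 1.9.0 on Gencode M28 (GRCm39) with correction for GC bias. Gene-level import used tximport, and testing used DESeq2 1.44.0. The authors deposited 1 table of 18204 genes. It holds scaled TPM per sample and 1 signal column, in which the authors give each gene's DESeq2 mean of normalized counts. The log2 fold change and adjusted p-value columns that the authors deposited for 4 inhibitor comparisons were not used. Raw counts were not analysed here. Without counts per sample the depth of each sample is unknown and no counting interval can be given.

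Here log2(TPM + 1) was fitted with 6 group means over all 18 samples (limma 3.58.1, R 4.3.3), moderated by empirical Bayes with the variance trended on the log2 of the mean normalized count plus 1. Genes at or below the 10th percentile of that count were left out, which kept 16383. Passing the test meant a Benjamini-Hochberg adjusted p below 0.05 over all genes tested, and the limit on size was 1.5-fold. The procedure was tested on simulated data. Tests covered MTOB against vehicle, dKO against wildtype in each treatment, and the MTOB effect between genotypes. The alternatives were other pseudocounts (0.1 and 0.5), other filters, median-of-ratios size factors, no trend, only the compared groups, a replicate block and leaving out each sample.

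The 10 members, the pathway lists and the tests were chosen with earlier results of these data known. Genes named from the lists are up to 5 per tested comparison, by size, past the test and 1.5-fold. A gene that this rule selects is not reported here. Also named are the 5 genes most correlated with Tgfbr1 and with Pmepa1. The lists' genes that are absent from the table were not analysed here. Promoter windows came from a RefSeq table (GRCm38.p6) and were located on GRCm39 by exact match. Figures were drawn with matplotlib 3.10.9.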

Additional observations from a re-analysis of the deposited data

How the results depend on the processing

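The number of members past the test was 2, 2, 5, 4 and 5 for MTOB in wildtype, MTOB in dKO, and dKO against wildtype under vehicle, MTOB and 4-Cl-HIPP. Leaving out 1 sample at a time gave 1 to 2, 1 to 3, 4 to 6, 4 to 4 and 3 to 5, and the count of members over 1.5-fold in the 3 genotype comparisons, 2 each, went from 1 to 2 in each. The lowest counts came without wildtype vehicle replicate 2 or wildtype MTOB replicate 1 for MTOB in wildtype, without dKO vehicle replicate 1 or 3 or dKO MTOB replicate 3 for MTOB in dKO, and without wildtype 4-Cl-HIPP replicate 1 for the genotypes under 4-Cl-HIPP. Fitted on the compared groups alone, 0 members passed for MTOB in dKO and 3 for the genotypes under vehicle, of which 1 was over 1.5-fold, as it was with size factors. This alternative has fewer samples from which to estimate the spread. For the 5 pathway lists together, the same fit gave 7 genes in place of 11 for MTOB in wildtype, 5 in place of 13 for MTOB in dKO and 10 in place of 18 for the genotypes under MTOB. Leaving out 1 sample gave 9 to 11, 7 to 12, 15 to 17, 15 to 17 and 15 to 20 genes of the lists in the 5 comparisons in the order above (18, 18 and 23 in the genotype comparisons with all samples), with the lowest for MTOB in dKO without dKO vehicle replicate 3 and for the genotypes under 4-Cl-HIPP without wildtype replicate 1. With a minimum mean normalized count of 10, 1 list gene passed the test of the MTOB effect between genotypes, where 0 did before.

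Same-numbered samples of different groups did not deviate together (r from -0.149 to 0.140 over 45 pairs, 1 of them over 0.1, with 15 of the 45 correlating best with their own number), so the numbers were not taken as pairs. With the replicate block the counts of members were 2, 2, 5, 4 and 5 and those of list genes 12, 13, 18, 18 and 22, so the block moved the list counts by 1 in 2 comparisons and no count of members.

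Some differences near 0, none past the test, changed sign. With size factors, Smad7 with MTOB in wildtype was 0.0101, Skil between genotypes under vehicle was -0.0151 and Smad4 between genotypes under 4-Cl-HIPP was -0.00078. Leaving out 1 sample at a time gave -0.131 to 0.106 for Smad7, -0.154 to 0.0868 for Smad3 and -0.0174 to 0.0374 for Smad2 with MTOB in wildtype. Between genotypes it gave -0.0224 to 0.0247 for Skil under vehicle, -0.026 to 0.139 for Smad2, -0.0249 to 0.0846 for Smad4 and -0.0226 to 0.0583 for Tgfb1 under MTOB, and -0.0785 to 0.102 for Smad4 and -0.0629 to 0.253 for Smad7 under 4-Cl-HIPP. For the MTOB effect between genotypes it gave -0.374 to 0.0815 for Pmepa1, -0.0464 to 0.052 for Tgfbr1 and -0.0424 to 0.0774 for Tgfbr2. The causes of these changes were not tested. With 3 samples a group and no counts, the error of a single value cannot be separated into counting and biological parts.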
